A study of Mus musculus with 11 samples.

Results

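Tst encodes thiosulfate sulfurtransferase, also called rhodanese, and is described here together with 9 other genes listed under sulfide and sulfur amino acid metabolism. The 10 genes are Tst, Mpst, Ethe1, Suox, Cth, Cbs, Cdo1, Csad, Gnmt and Txnrd2, and all 10 were found by symbol among the 15453 genes with a value in each mouse. The set was drawn up around Tst, which was chosen on the values of these same mice, so the genotype difference of Tst is given as a description with no test. The samples were epididymal adipose tissue, a white fat depot (eWAT), taken at 16 weeks of age from 11 male C57BL/6 mice (C57BL/6J in the study's methods) on a high fat diet. Of these, 6 were wildtype (WT) and 5 were Mest+/- animals that inherited the inactivated allele from the father (pKO). The study selected them from a larger cohort on this diet. It reports a higher ratio of fat to lean mass in these WT mice than in these pKO mice. Genotype and adiposity can therefore not be told apart in the contrasts given here. The inactivated allele lacks exon 3 of Mest (mesoderm specific transcript) in every tissue, and since Mest is imprinted and expressed almost only from the paternal allele, pKO mice keep an intact but mostly silent maternal copy.

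Hydrogen sulfide is a toxic gas in quantity and a signalling molecule in small amounts, and mammalian cells both make it and dispose of it. The enzymes Cth, Cbs and Mpst can release it from cysteine, homocysteine or mercaptopyruvate. In mitochondria, sulfide:quinone oxidoreductase (Sqrdl, now named Sqor) passes sulfide on as a persulfide, Ethe1 oxidizes the persulfide to sulfite, Tst transfers sulfur between thiosulfate, persulfides and other acceptors such as cyanide, and Suox turns sulfite into sulfate. Cysteine can instead be oxidized by Cdo1 and decarboxylated by Csad on the way to taurine. Adipocytes are known for a high content of Cdo1, and Tst has been studied in adipose tissue as a mitochondrial gene connected with leanness.

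Expression was measured with SAGE (serial analysis of gene expression). For it, cDNA is cut with NlaIII and 1 short tag next to the cut stands for each transcript. A level is therefore given in normalized tags, the tag number after division by each library's size factor. Because each transcript gives 1 tag, levels are not divided by transcript length. Comparing levels of different genes also assumes that their tags were recovered and mapped equally well, which was not tested. Libraries of WT mice held 9659740 to 14825727 tags and those of pKO mice 11320342 to 14626803, and 1 normalized tag stood for about 1 counted tag (1 tag was worth 0.836 to 1.19). Mest, the targeted gene, had 793 to 2275 normalized tags in pKO mice against 20756 to 27897 in WT. The NlaIII site nearest the 3' end of Mest lies in its last exon, outside the deleted exon, so this tag does not test the deletion itself. The library of pKO1 stood furthest from the rest, with a mean correlation of 0.950 with the other libraries over genes, against 0.959 to 0.971 for the others.

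The 2 sulfurtransferases are related enzymes encoded side by side, so the tags that could stand for them are shown first. In the GENCODE M21 transcripts of mouse genome build GRCm38, the site nearest the 3' end lies in the coding part of the last exon in both genes, at chr15:78399961-78399987 on the minus strand for Tst and at chr15:78413623-78413649 on the plus strand for Mpst. Capitals mark the NlaIII site and lower case the 23 bases after it, read from the transcript. The length of tag that was sequenced and mapped is not given in the sources used here.
Tst: CATGgacttcctgacgaaagatggctt
Mpst: CATGcgtgcccagccagagcatatcat
These stretches have the same base at 9 of the 23 positions after the site, and all 4 coding Mpst transcripts end with the same tag. None of the stretches found for the 9 members other than Cdo1, whose tag is not reported here, was the last tag of a transcript of any other gene. Cth and Cbs, the enzymes of the transsulfuration pathway, are shown because Cbs has more than 1 possible tag.
Cth: CATGtttacaatgttacaatttagtat
Cbs, 3 of 4 transcripts: CATGaccctgcttagcccactcctcac
Cbs, the longest transcript: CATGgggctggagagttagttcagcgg
The Cth tag lies in the 3' untranslated region at chr3:157894469-157894495, and the Cbs tags lie in the 3' untranslated region at chr17:31612729-31612755 and chr17:31609409-31609435, all on the minus strand. Which of the Cbs tags was counted as Cbs is not given, so its level may leave out part of its transcripts.

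Tst was higher in every pKO mouse than in any WT mouse. Its level ran from 46.0 to 71.4 normalized tags in WT mice with a median of 57.0, and was 123, 131, 143, 149 and 138 in pKO1 to pKO5. The lowest pKO mouse thus had more Tst than the highest WT mouse, and the ranges did not overlap. Group averages were 57.0 ± 10.3 normalized tags for WT (SD, n = 6) against 137 ± 10.4 for pKO (SD, n = 5), a ratio of 2.40. On the log2(value + 1) scale the difference, pKO minus WT, was 1.26 with a standard error of 0.16 and a 95% interval of 0.93 to 1.60. Because Tst was chosen on this contrast, the interval is no test and may lie too far from 0. The levels of Tst rest on 40 to 169 counted tags a mouse, for which counting alone gives a spread of 13.0% of the WT mean and 8.44% of the pKO mean. The observed SD was 18% of the mean for WT and 7.61% for pKO mice, so that mice of 1 genotype differed little beyond counting error. Bulk tissue was sampled, in which more cells of a type and more RNA per cell cannot be told apart. Among the 9906 genes that averaged at least 50 normalized tags in a genotype, the ranges did not overlap in 1.43%, a share given only as background because Tst was chosen on this contrast.

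Mpst, encoding mercaptopyruvate sulfurtransferase, did not follow Tst, whose tag has another base at most positions. WT mice had 98.1 to 176 normalized tags of Mpst (median 143), and pKO1 to pKO5 had 36.1, 86.0, 175, 92.7 and 108. The values of 3 pKO mice lay below the lowest WT value while pKO3 was level with the highest, so the groups overlapped and the spread was wide in pKO mice (SD 50.3% of the mean). WT mice averaged 136 ± 31.2 and pKO mice 99.6 ± 50.1 (SD, n = 6 and n = 5). The log2 difference of -0.58 (standard error 0.32, 95% interval -1.26 to 0.10) did not pass the test (limma, adjusted p = 0.58). Without pKO1, the mouse with the lowest value, it was -0.26, and without pKO3 it was -0.82, which passed the unadjusted threshold of 0.05 but not the adjusted one (limma adjusted p = 0.62). The limma, edgeR or DESeq2 adjusted p of Mpst was between 0.53 and 0.75 over all alternatives.

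The order of Tst and Mpst differed between the genotypes. Mpst exceeded Tst in 6 of 6 WT mice, with a Tst to Mpst ratio of 0.303 to 0.644 (median 0.427). It exceeded Tst in 1 of 5 pKO mice, pKO3, and the ratio ran from 0.820 to 3.40 in that genotype (median 1.52). The ratio contains the Tst values on which the set was chosen, and so it is a description too.

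**Figure D1:**
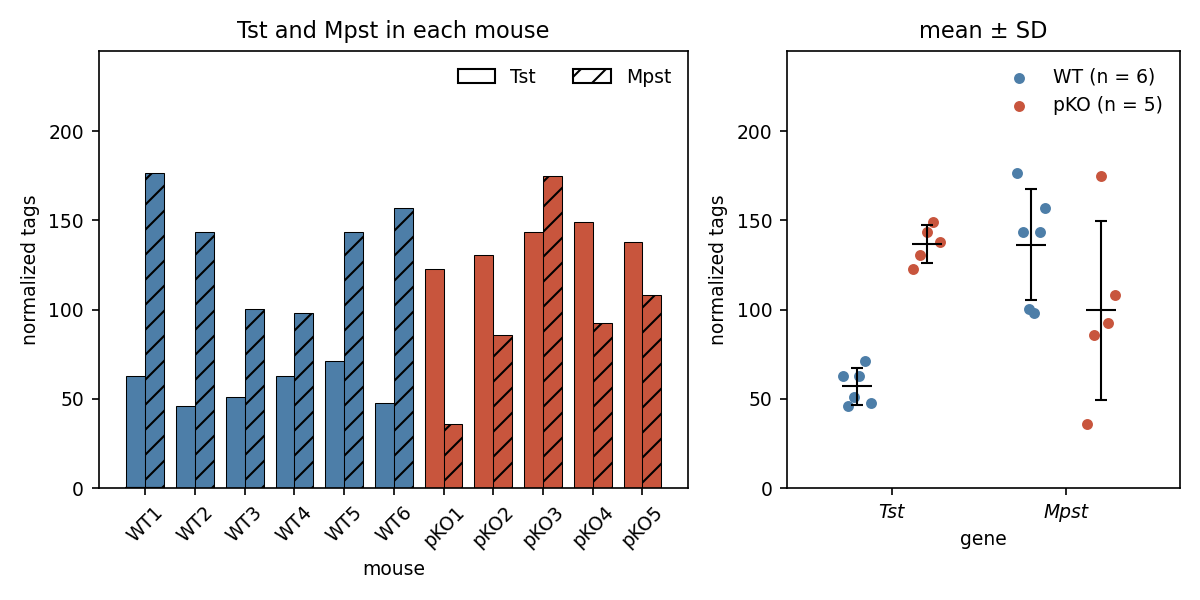
Normalized tags of Tst (plain bars) and Mpst (hatched bars) in each WT (blue) and pKO (red) mouse, and the same values by genotype with the mean ± SD. Tst lies between 123 and 149 in pKO mice and between 46.0 and 71.4 in WT, while the Mpst values of the genotypes overlap.

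Ethe1 and Suox, which encode the persulfide dioxygenase and sulfite oxidase of mitochondria, had low levels and no genotype difference that passed the test. Ethe1 had 13.4 to 41.5 normalized tags in WT mice (median 26.1) and 15.5, 24.1, 8.14, 28.2 and 37.9 in pKO1 to pKO5. The ranges overlapped widely, with a log2 difference of -0.32 (95% interval -1.14 to 0.50, limma adjusted p = 0.83). Without pKO3, the mouse with the lowest Ethe1, the difference was -0.018, and without pKO5, the pKO mouse with the highest, it was -0.54. Suox had 21.5 to 30.1 normalized tags in WT mice (median 27.1) and 30.9, 33.2, 25.4, 20.3 and 28.7 in pKO1 to pKO5. Its log2 difference was 0.05 (95% interval -0.37 to 0.46, limma adjusted p = 0.96). Suox was the steadiest of the scarce genes, since its SD was 13.1% of the WT mean and 18.2% of the pKO mean, no more than the 19.1% and 18.8% that counting gives at this depth. For Ethe1 the SD was 40.2% and 50.4% of the mean, against 19.2% and 20.8% from counting.

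Cth and Cbs differed in level by more than an order of magnitude in most mice, and neither differed between genotypes beyond its spread. Cth, cystathionine gamma-lyase, had 351 to 891 normalized tags in WT mice (median 632) and 733, 976, 583, 450.1 and 358 in pKO1 to pKO5. Both genotypes covered nearly the same range, with a log2 difference of -0.05 (95% interval -0.62 to 0.53, limma adjusted p = 0.97). The SD of Cth was 28.7% of the WT mean and 39.4% of the pKO mean, although counting accounts for only 3.93% and 3.99%. Cbs, cystathionine beta-synthase, had 16.5 to 52.2 normalized tags in WT mice (median 29.7) and 39.5, 25.2, 57.0, 49.4 and 35.8 in pKO1 to pKO5. Its log2 difference was 0.44 (95% interval -0.20 to 1.08, limma adjusted p = 0.66), an interval that leaves room for a doubling. The ratio of Cth to Cbs ran from 6.73 to 43.6 among WT mice and from 9.11 to 38.7 among pKO mice.

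Cdo1 was by far the most abundant member. Cysteine dioxygenase, its product, commits cysteine to oxidation and away from sulfide. WT mice had 10497 to 14453 normalized tags (median 13254), and pKO1 to pKO5 had 12236, 13678, 15987, 13813 and 14767. The ranges overlapped, and the log2 difference of 0.13 (95% interval -0.13 to 0.40, limma adjusted p = 0.77) had the narrowest interval of the 10 genes. Csad, cysteine sulfinic acid decarboxylase, acts next in the path to taurine and had 123 to 196 normalized tags in WT mice (median 159.8). In pKO1 to pKO5 it had 161, 167, 243, 217 and 149, of which 2 lay above all WT values. The log2 difference of Csad was 0.23 (95% interval -0.15 to 0.60, limma adjusted p = 0.71). Cdo1 tags outnumbered Csad tags by 70.5 to 89.2 times among WT mice and by 63.6 to 98.8 times among pKO mice.

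Gnmt, glycine N-methyltransferase, uses up S-adenosylmethionine and is an abundant enzyme of liver. It was at the limit of detection in eWAT, with 0 to 12.6 normalized tags in WT mice (median 3.99) and 12.0, 1.15, 1.02, 7.06 and 3.07 in pKO1 to pKO5. WT2 had 0 tags, which allows up to 3.07 normalized tags (3 counted tags). At this depth only a large genotype difference was detectable, and the 95% interval of the log2 difference ran from -1.43 to 1.44 around 0.01 (limma adjusted p = 0.998). Txnrd2, the mitochondrial thioredoxin reductase that keeps thioredoxin reduced, had 135 to 269 normalized tags in WT mice (median 222). Its values in pKO1 to pKO5 were 173, 229, 215, 203 and 174, all within the WT range. The log2 difference of Txnrd2 was -0.06 (95% interval -0.46 to 0.34, limma adjusted p = 0.94).

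The levels of the members in WT mice covered more than 3 powers of 10. By mean level in WT mice the order was Cdo1, Cth, Txnrd2, Csad, Mpst, Tst, Cbs, Ethe1, Suox and Gnmt. Neighbours in this order had ranges that did not overlap at Cdo1 and Cth, Cth and Txnrd2, Mpst and Tst, and Suox and Gnmt. The other neighbours overlapped, so Txnrd2, Csad and Mpst were not separated from each other in turn, nor were Tst and Cbs, Cbs and Ethe1, or Ethe1 and Suox. In pKO mice Tst stood above Mpst, at rank 5 and rank 6, and Tst exceeded Cbs in 5 of 5 mice compared with 5 of 6 WT mice.

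**Figure D2:**
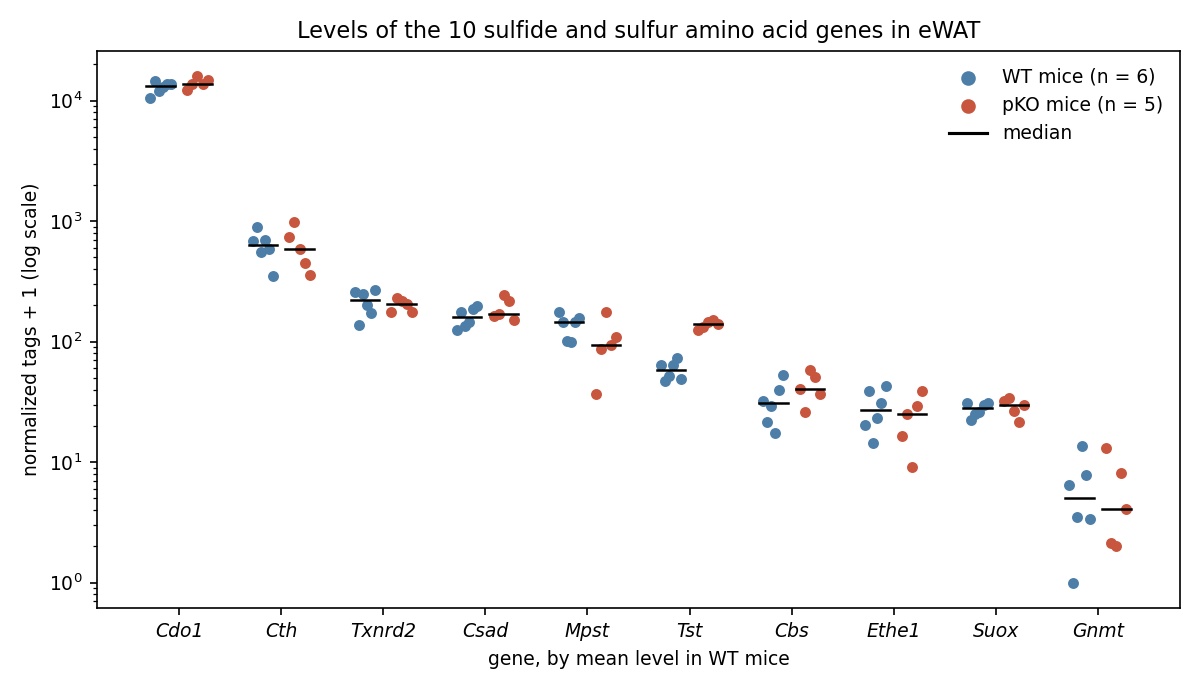
Normalized tags plus 1 (log scale) of the 10 genes in each WT (blue, n = 6) and pKO (red, n = 5) mouse, ordered by mean level in WT mice, with black lines at the medians. Tst is the member whose WT and pKO points do not overlap, and Gnmt of WT2, with 0 tags, lies at 1 on this axis.

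Of the 10 members, 6 averaged at least 50 normalized tags in a genotype and could meet the rule for a call, an adjusted p of at most 0.1 together with that mean. None of the 9 members other than Tst was called by limma, and all had an unadjusted p above 0.05 with the 11 mice. Their adjusted p-values ran from 0.58 to 0.998, and edgeR and DESeq2 on the counted tags also called none of them. Across all genes the call rule took 5 of 9906, or 0.0505%, of which 1 was higher and 4 were lower in pKO mice. This count was 121 with DESeq2, 91 without pKO2, 12 without WT5 and 3 without WT1, WT2, WT3, WT4, WT6 or pKO1. The median log2 difference of the 9 was 0.0064, against -0.0025 for all 15453 genes, with 6 of the 10 members above 0 and 4 below.

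**Figure D3:**
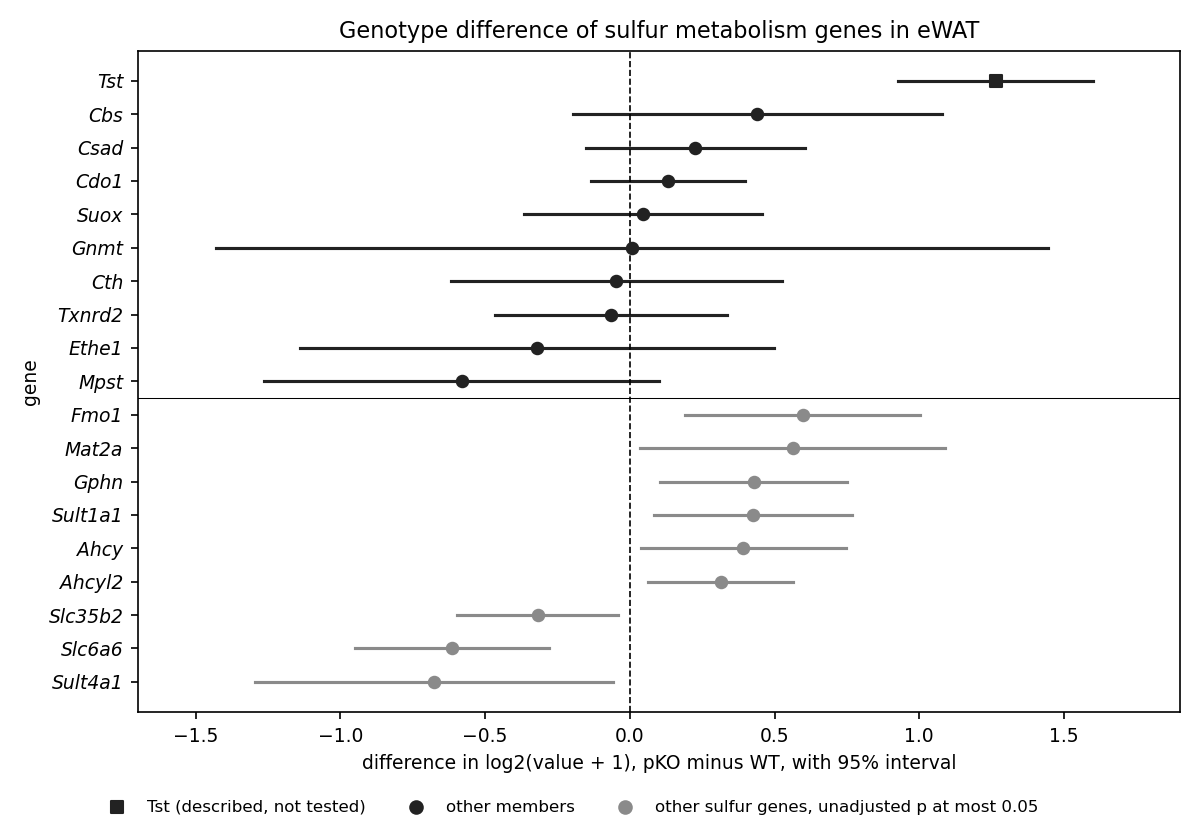
Difference in log2(value + 1), pKO minus WT, with its 95% interval for the 10 members (black) and for the 9 other sulfur metabolism genes whose unadjusted p was 0.05 or less (grey). The intervals of the 9 members other than Tst include 0, and Tst is at 1.26. The interval of Tst is no test, since Tst was chosen on this contrast.

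Other genes of sulfur metabolism were followed through 7 lists with 89 genes, of which 79 were in the tables and 64 averaged at least 50 normalized tags in a genotype. None of the 64 was called by limma or edgeR, and DESeq2 called 1, Slc6a6. At an unadjusted p of at most 0.05, 6 were higher in pKO mice, against 4.85% of all genes at that mean, and 3 were lower, against 5.77%. Both directions together made 14.1% of the 64, against 1052 of all 9906 genes at that mean. With values scaled to equal totals instead, the share of higher genes among all those at that p fell from 45.6% to 30.9%, while 5 of the sulfur genes were then higher and 3 lower. The genotypes' ranges overlapped in each of the 64, and the median log2 difference was 0.00046. Without pKO2 limma called Slc6a6 as well, and without pKO3 the count at the unadjusted threshold was 5 instead of 9. The split of 6 higher and 3 lower turned to 4 higher and 5 lower without WT6, and was 8 and 1 without pKO5. The 9 genes are described next as values, since their adjusted p-values did not pass. The counts by list given with them stand against the same 4.85% and 5.77% of all genes, and no list was tested.

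In the list of cysteine oxidation and taurine, with 4 genes at that mean, 1 was higher and 1 was lower. Slc6a6, the taurine transporter and the most abundant gene of its list, had 449 to 702 normalized tags in WT mice (median 595) and 412, 501, 332, 387 and 298 in pKO1 to pKO5. Only pKO2 reached into the WT range, and the log2 difference was -0.62 (standard error 0.16, limma adjusted p = 0.28). Fmo1, a flavin-containing monooxygenase that can oxidize hypotaurine to taurine, had 120.4 to 243 normalized tags in WT mice (median 193) and 290.2, 282, 303, 215 and 246 in pKO1 to pKO5. Its log2 difference was 0.60 (standard error 0.19, limma adjusted p = 0.37), with 4 of 5 pKO mice above all WT mice.

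Gphn, gephyrin, takes part in the molybdenum cofactor that sulfite oxidase needs. WT mice averaged 131 ± 18.3 and pKO mice 177 ± 25.9 normalized tags of it (SD, n = 6 and n = 5), a log2 difference of 0.43 (limma adjusted p = 0.41). It was 1 of 5 genes in the list of the cofactor, in which Mocs1 was the most abundant, at 485 ± 60.8 and 561 ± 109.9 normalized tags. In the methionine cycle 3 of 16 genes were higher and none was lower at the unadjusted threshold. Over all genes at that mean the shares were 4.85% and 5.77%, and the list as such was not tested. Mat2a, which makes S-adenosylmethionine, had a log2 difference of 0.56 (limma adjusted p = 0.50). Ahcy, which splits S-adenosylhomocysteine into homocysteine and adenosine, had a difference of 0.39 (limma adjusted p = 0.48), and the related Ahcyl2 of 0.31 (limma adjusted p = 0.43). Ahcyl1, the most abundant gene of the list, averaged 1761 ± 432 normalized tags for WT and 1763 ± 422 for pKO mice.

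Among 9 genes of sulfate activation and transfer, 1 was higher and 2 were lower at the unadjusted threshold. Sult1a1, a phenol sulfotransferase and the most abundant of them, averaged 5988 ± 1022 normalized tags for WT and 8039 ± 1396 for pKO mice (SD, n = 6 and n = 5), a log2 difference of 0.43 (limma adjusted p = 0.44). Slc35b2, which carries activated sulfate into the Golgi, differed by -0.32 (limma adjusted p = 0.47), and Sult4a1, a cytosolic sulfotransferase, by -0.68 (limma adjusted p = 0.49). Of 10 genes for cystine uptake and glutathione and 14 for thioredoxin and glutaredoxin, none reached the unadjusted threshold. Their most abundant genes were Cndp2, a dipeptidase that yields cysteine from cysteinylglycine (1850.4 ± 477 and 1960.3 ± 139 normalized tags), and Txn1, cytosolic thioredoxin (6386 ± 261 and 7621 ± 1379.6).

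The remaining list held 6 other genes of sulfide production and oxidation at that mean, and none reached the unadjusted threshold. Got2, a mitochondrial aminotransferase that can supply mercaptopyruvate for Mpst, was the most abundant, with 1669 to 2214 normalized tags in WT mice and 1280.1 to 3349 in pKO mice. Sqrdl was singled out after its values were seen. It had 1183 to 3030.2 normalized tags in WT mice (median 2041) and 223, 2843, 399, 2482 and 2572 in pKO1 to pKO5. Thus pKO1 and pKO3 lay far below all other mice, and the same 2 mice had the lowest Ethe1 values among the pKO mice, whereas Tst in these mice, at 123 and 143, was far above the WT range. In WT mice the 2 genes went together only in part. WT6 and WT2 had the highest values of both, with 41.5 and 37.9 normalized tags of Ethe1 and 3030.2 and 2625 of Sqrdl. But WT3 had the lowest Ethe1 of that genotype, 13.4, with 2428 of Sqrdl, and WT5 had the lowest Sqrdl, 1183, with 29.9 of Ethe1. The log2 difference of Sqrdl was -0.78 with a 95% interval of -2.11 to 0.54 (limma adjusted p = 0.72). Dao, which can form mercaptopyruvate from D-cysteine and was also chosen after its values were seen, reached 249 in WT4, 87.8 in WT5 and 444 in pKO1 but at most 15.9 normalized tags in the other 8 mice. The same 3 mice had the highest values of Sult1d1, a sulfotransferase (27.2, 9.65 and 48.1, at most 2.04 in the others). So it was for Slc7a9, a cystine transporter subunit (7.77, 7.72 and 10.3, at most 0.883 in the others). Sult1c2, another sulfotransferase, was at 11.7, 1.93 and 13.7 in these mice and at 0 in the others. These 3 genes were also chosen after their values were seen. The member Gnmt was at 12.6, 6.75 and 12.0 in the same mice, against at most 7.06 in the others, in pKO4. Of the 2 markers of epididymis and testis that were found, Adam7 was at 7.77, 26.1 and 43.8 in these mice. In the others Adam7 was at most 13.4, in WT3, which is above WT4. Rnase10, the other marker, was at 0, 10.6 and 0 in these mice and at most 9.16 in the others. A part of other tissue in these values was not tested.

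**Figure D4:**
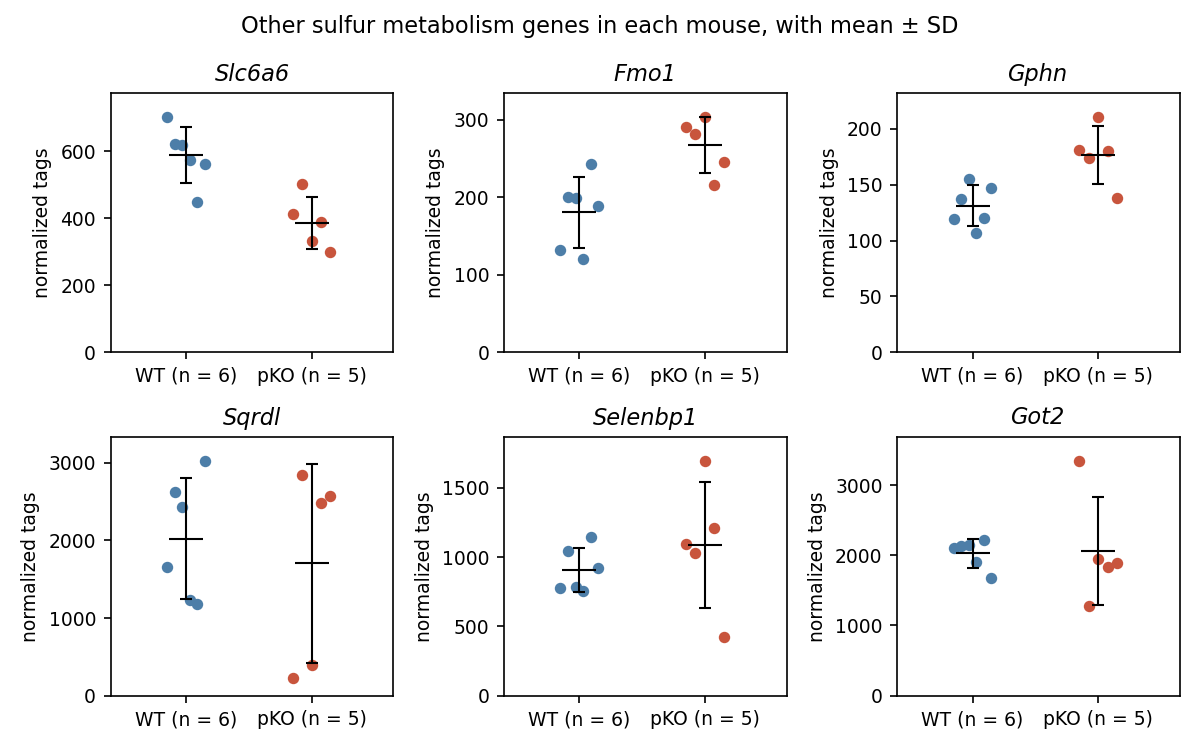
Normalized tags of 6 other sulfur metabolism genes in each WT (blue) and pKO (red) mouse, with the mean ± SD. Slc6a6, Fmo1 and Gphn are those with the lowest unadjusted p, and the values 223 and 399 of Sqrdl in pKO1 and pKO3 lie below those of all other mice.

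The genes whose profile over the 11 mice was nearest to that of Tst were Krt19, Gpd2, Hoxb5, Acot2 and Gsta3. Likeness was the root mean square difference of log2(value + 1) after centring each gene, over 9726 genes with a mean of at least 50, and it was 0.352 for Krt19, 0.353 for Gpd2, 0.369 for Hoxb5, 0.370 for Acot2 and 0.387 for Gsta3. Because nearness was measured to a profile in which the genotypes are apart, higher means in pKO mice were largely set by this choice. The ratios of the pKO to the WT mean were 1.63, 1.60, 1.69, 1.55 and 1.92 in the same order. Krt19 is a keratin of mesothelial and other epithelial cells, Gpd2 is the mitochondrial glycerol-3-phosphate dehydrogenase, Hoxb5 is a homeobox transcription factor, Acot2 is a mitochondrial acyl-CoA thioesterase and Gsta3 is a glutathione S-transferase. When each genotype was centred on its own mean, the nearest genes were Kat2a, Mrpl19 and Mea1 (0.136, 0.137 and 0.138) among 7793 genes that varied at least as much as Tst. Within a genotype Tst differed little beyond counting error, so this nearness does not show that these genes vary together with Tst. Of the other members at that mean, Csad ranked 1375th, Cdo1 1632nd, Txnrd2 5453rd, Cth 7307th and Mpst 9181st by distance to Tst over the 11 mice.

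Tst and Mpst lie head to head on chromosome 15 of GRCm38, Tst from 78399556 to 78405865 and Mpst from 78406712 to 78414015, with 846 bases between them in the RefSeq annotation. Csf2rb, a cytokine receptor subunit on the side of Tst, averaged 307 ± 66.4 normalized tags for WT and 277 ± 25.1 for pKO mice (SD, n = 6 and n = 5). Its log2 difference was -0.12 (limma adjusted p = 0.85). Kctd17, a potassium channel tetramerization domain gene on the side of Mpst, differed by 0.18 (limma adjusted p = 0.76), from 1092 ± 159 to 1246 ± 254 normalized tags. Tmprss6 and Il2rb, further out, averaged 6.40 ± 6.13 and 25.5 ± 9.50 normalized tags for WT, and 4.26 ± 0.81 and 20.2 ± 7.25 for pKO mice. The neighbours of Tst that were measured therefore gave no difference past the test, and Tex33, between Csf2rb and Tst, was not in the tables.

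The adipose identity of the samples was checked with markers of the cells that eWAT or its surroundings could contribute. All 10 adipocyte markers were present, with a summed level of 705608 to 1116860 normalized tags for WT and 762779 to 1133280 for pKO mice, most of it Fabp4. Their log2 differences were above 0 for 8 and below 0 for 2. The unadjusted p-value was at most 0.05 for 1 of them, Pnpla2, at 0.55 (limma adjusted p = 0.37), and none was called. The 8 mesothelial markers were all present and all higher on average in pKO mice, with sums of 1188 to 1625 for WT and 1445 to 2903 for pKO mice. Unadjusted p-values were at most 0.05 for 3 of them, Krt19, Upk1b and Msln, and none was called. Some of these averages rested in part on pKO1. It had 324 of Msln, 318 of Upk3b and 198 of Krt8, against at most 183, 179 and 64.4 in the other pKO mice. Upk3b lay below the lowest WT value in 2 pKO mice. Krt8 was highest in WT4, WT5 and pKO1, the mice with the most Dao. Among the 8, only Krt19 had ranges that did not overlap. The part of mesothelial cells in the Tst difference was not tested. Of 18 hepatocyte markers 13 were in the tables, with sums of 229 to 582 for WT and 525 to 1576 for pKO mice, nearly all of it Alb, whose log2 difference was 1.61 (limma adjusted p = 0.19). Over these 13 markers the log2 difference was above 0 for 6 and below 0 for 7, among them Serpina1a at -0.68 (limma adjusted p = 0.49). The other hepatocyte markers were at most 42.4 normalized tags in any mouse, Ttr and Fga were at 0 in several mice, and the liver enzyme Gnmt was at most 12.6. All 10 macrophage markers were present, with sums of 5589 to 8838 for WT and 5498 to 7431 for pKO mice and log2 differences below 0 for 9 of the 10. The unadjusted p-value was at most 0.05 for 2 of the macrophage markers, and neither was called. They were Itgam, at -0.72 (limma adjusted p = 0.37), and Itgax, at -0.90 (limma adjusted p = 0.44). That threshold was also reached by 1 endothelial and 3 hepatocyte markers, none of them called. The part of macrophages in the Tst difference was not tested either. Of the endothelial markers all 8 were present, of those of epididymis and testis 2 of 10, and of those of skeletal muscle 4 of 6, at sums of 65.5 to 277 normalized tags for muscle and of at most 43.8 for epididymis and testis.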

How the data were processed

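RNA of eWAT from 6 WT and 5 pKO mice was made into SAGE libraries with NlaIII and EcoP15L and sequenced on a SOLiD system. The authors mapped the tags with SOLiD SAGE Analysis Software that they had modified, and per the labels the build was mm10 and edgeR 3.2.3 was among the tools. The deposited values are a signal: tags per gene over the library's size factor. Whole tags were recovered for 100% of values within 0.01 tag. The mapping filters are not given in the sources used here. Here log2(value + 1) of all 15453 genes was compared between genotypes with limma 3.58.1 (two-sided, trended variance, Benjamini-Hochberg adjustment). A log2 difference on this scale understates changes of scarce genes. A gene was called at an adjusted p of at most 0.1 when it averaged at least 50 normalized tags in a genotype, and a second threshold was an unadjusted p of at most 0.05. Members were given in every mouse, and other sulfur genes were named when they met the second threshold or were the most abundant of their list. Sqrdl, Dao, Sult1d1, Slc7a9 and Sult1c2 were added after their values were seen. Genes near Tst in profile or on the chromosome were named by rank, and Mest as the targeted gene. Members and lists were chosen with earlier results of these data known. Of the steps, only the limma, edgeR and DESeq2 tests were run on simulated tags. The planted changes were larger than those of the sulfur genes described here, with the same spread for all genes. The simulation therefore does not show how well small differences are found. Alternatives were edgeR and DESeq2 on the recovered tags, other scalings, pseudocounts, filters and variance models, a replicate block, and each mouse left out. Counting errors and the limit of 3 tags for a count of 0 cover counting only, since PCR copies were not marked. Positions came from RefSeq on GRCm38.p6, which mm10 shares, with 10 of 10 member symbols matched, and the position of Cdo1 is not reported here. Libraries came from separate mice, and no batch is given in the labels.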

Additional observations from a re-analysis of the deposited data

How the results depend on the processing

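Tst was higher in pKO mice under all 21 alternatives, with a log2 difference of 1.14 (pseudocount of 10) to 1.33. Leaving out single mice could not turn this direction, since the ranges of Tst did not overlap. The other alternatives reuse the values on which Tst was chosen, so they are a description of Tst and no independent test. None of the other 9 members was called under any alternative, though Gnmt was too scarce to be tested with a filter at a mean of 10. Directions of members near 0 were not stable. Gnmt became negative with DESeq2 (-0.0068), a pseudocount of 10 (-0.012) and total-count scaling (-0.017), and ran from -0.43 to 0.33 with single mice left out. With single mice left out Suox ran from -0.022 to 0.15, Cth from -0.23 to 0.13 and Txnrd2 from -0.19 to 0.012, while Ethe1 (-0.54 to -0.018), Mpst (-0.82 to -0.26), Cbs (0.28 to 0.60), Cdo1 (0.075 to 0.18) and Csad (0.13 to 0.30) kept their sign. Replicate numbers did not pair the mice, since deviations of mice with the same number correlated at -0.0207 on average and from -0.0927 to 0.138. The replicate block, which leaves out WT6, gave 1 called gene among all genes instead of 5, and -0.076 for Gnmt and 0.012 for Txnrd2. DESeq2 called 121 of all genes and a filter at a mean of 10 called 9. With single mice left out the count was 3 to 91, with 91 without pKO2, 12 without WT5 and 3 at the lowest. Of the other sulfur genes DESeq2 called 1, and with single mice left out 0 to 1 were called, Slc6a6 in both cases (without pKO2). The 9 other sulfur genes at the unadjusted threshold became 6 with the replicate block and 5 to 10 with single mice left out, 5 without pKO3. Depth limits what can be said of Gnmt, and less so of Ethe1, Suox and Cbs.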
